A study of Mus musculus with 20 samples.

Results

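Osteopontin and fibronectin, 2 secreted adhesion proteins, were described together with 6 genes of their receptors over every sample of an RNA-Seq series on microglia after spinal cord injury. The 8 genes were chosen by symbol: *Spp1* (osteopontin), *Fn1* (fibronectin), *Cd44*, and the integrin subunit genes *Itgav*, *Itgb1*, *Itgb5*, *Itga4* and *Itga5*. All 8 were found among the 16810 genes of the table. The set was built around *Spp1* because this gene had the largest rise at 72 h in log2(CPM + 0.5), so values at 72 h against non-injured samples are given as a description, without a test.

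The cells came from adult male mice with 1 copy of the Cx3cr1 gene replaced by eGFP (CX3CR1+/eGFP), and this genotype was shared by every group, the controls included. Microglia were sorted as cells with high eGFP fluorescence from a thoracic segment centred on the lesion. There were 3 samples from non-injured mice (NI). Lateral hemisection (HS), a cut through 1 side of the cord, was sampled in 3 libraries at 72 h, 2 libraries at 1 week and 3 libraries at 2 weeks. Full transection (FT) was sampled at the same times, with 3 libraries for each. The eGFP reporter is also active in monocytes. In a separate HS experiment the study found eGFP-high cells negative for LY6C. At 72 h it saw 2 levels of CD45 among eGFP-positive cells, in its view most likely ramified microglia and activated macrophages. It could not separate them at 1 week and 2 weeks. The study leaves some carry-over of infiltrating macrophages possible. Its methods call the samples of a group biological replicates and give more mice than samples, without saying which mice went into which sample.

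Osteopontin and fibronectin both carry an RGD motif that several integrins recognise. Integrins are pairs of an alpha and a beta subunit: the products of *Itgav* and *Itgb5* form a vitronectin and osteopontin receptor, those of *Itga5* and *Itgb1* the classical fibronectin receptor, and those of *Itga4* and *Itgb1* a receptor for VCAM1 as well as for alternatively spliced fibronectin and osteopontin. CD44 is a hyaluronan receptor that also binds osteopontin. *Spp1* is widely used as a marker of activated microglia in injury and disease.

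Values are normalised counts whose unit the labels do not state. They were treated as reads per mega-read of a scaled library (CPM). The 20 samples held 3.87 to 34.1 mega-reads on the listed genes, so that 1 read was worth 0.0330 to 0.292 CPM. The lowest level of any of the 8 genes in any sample was 11.1 CPM, for *Itga4*. The 10 microglia markers, among them *P2ry12* and *Tmem119*, were detected in every group, and their summed level was between 18503 and 38940 CPM in the 20 samples. It was lowest in FT 1 week replicate 1, against 38940 and 32438 CPM in the other two samples of that group. Single microglia markers moved in both directions. At 72 h after both injuries, without a test, *Tmem119* was at least 2-fold below NI and *Fcrls* at least 2-fold above it. At a limma adjusted p under 0.05 and at least 2-fold, *P2ry12* was lower than NI in FT 2 weeks. By the same rule *Fcrls* was higher in FT 1 week. Markers of other cells were present at lower levels and none was at 0 in every sample of a group. The largest of these sums belonged to 5 oligodendrocyte markers, with 2477 CPM at FT 2 weeks replicate 2. Their lowest sum, 462 CPM, was also at FT 2 weeks, and the NI samples spanned 1202 to 2408 CPM. Astrocyte sums (5 markers) lay between 142 CPM (HS 2 weeks) and 572 CPM (FT 72 h). Neutrophil sums (5 markers) lay between 4.68 and 258 CPM, both at FT 2 weeks, and reached 90.2 CPM among NI samples. The summed level of 6 monocyte markers was 19.4 to 27.6 CPM in NI, 53.4 to 126 CPM in HS 72 h, 81.3 to 245 CPM in FT 72 h and 16.0 to 56.8 CPM at the later times. The 6 border macrophage markers summed to 634 to 672 CPM in NI, 649 to 1086 CPM at 72 h and 317 to 835 CPM later. The 6 fibroblast markers summed to 19.7 to 41.4 CPM in NI, 32.6 to 117 CPM in HS 72 h, 22.5 to 54.0 CPM in FT 72 h, 12.4 to 12.99 CPM in HS 1 week, 11.5 to 93.7 CPM in HS 2 weeks, 13.6 to 38.4 CPM in FT 1 week and 8.52 to 25.1 CPM in FT 2 weeks. The part of these cells in the levels below was not tested. In sorted bulk RNA, fewer cells of a type and less RNA per cell cannot be told apart.

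On the GRCm38 build, *Spp1* lies on chromosome 5 (104435118 to 104441050, plus strand), *Fn1* on chromosome 1 (71585520 to 71653200, minus strand) and *Cd44* on chromosome 2 (102811141 to 102901665, minus strand). *Itgav* and *Itga4* lie on the plus strand of chromosome 2 (83724397 to 83806916 and 79255426 to 79333123). *Itgb1* (chromosome 8, 128685654 to 128733200, plus strand), *Itgb5* (chromosome 16, 33829665 to 33949338, plus strand) and *Itga5* (chromosome 15, 103344286 to 103366763, minus strand) are each on a chromosome of their own. Values were summed over each whole gene, so the splice forms of *Spp1*, *Fn1* and *Cd44* were not separated. Strand use in counting was not given in the sources used here. *Itga4* overlaps *Cerkl* on the opposite strand, which had 3.07 to 10.8 CPM over the 20 samples, and *Fn1* overlaps *Apol7d*, which had at most 1.09 CPM.

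The 250 bases before the transcription start were available for 7 of the 8 genes in RefSeq (GRCm38.p6), and *Fn1* is named only. They are shown for *Spp1* and *Cd44*, which were both higher at every time after injury, and for *Itgb5*, the most abundant receptor gene per length, whose level was not called different in any comparison. Capitals mark the core of the site of PU.1, the lineage factor of macrophages and microglia (GAGGAA, or TTCCTC on the other strand).
Spp1, chr5:104434861-104435110, plus strand: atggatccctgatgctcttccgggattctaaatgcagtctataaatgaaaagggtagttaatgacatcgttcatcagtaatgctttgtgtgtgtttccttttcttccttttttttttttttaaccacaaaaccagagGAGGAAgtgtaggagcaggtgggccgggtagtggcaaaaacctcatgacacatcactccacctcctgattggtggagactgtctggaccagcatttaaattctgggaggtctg
Cd44, chr2:102901666-102901915, minus strand: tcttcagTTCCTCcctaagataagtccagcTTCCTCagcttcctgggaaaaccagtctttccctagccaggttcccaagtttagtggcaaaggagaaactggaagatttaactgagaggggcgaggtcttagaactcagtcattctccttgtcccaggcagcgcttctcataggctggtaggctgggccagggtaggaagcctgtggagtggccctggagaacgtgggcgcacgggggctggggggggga
Itgb5, chr16:33829415-33829664, plus strand: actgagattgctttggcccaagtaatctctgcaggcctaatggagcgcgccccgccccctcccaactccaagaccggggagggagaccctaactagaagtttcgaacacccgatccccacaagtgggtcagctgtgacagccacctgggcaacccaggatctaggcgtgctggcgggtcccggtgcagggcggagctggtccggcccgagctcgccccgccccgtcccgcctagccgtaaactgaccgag
RefSeq gave 2 start sites for *Spp1*, and the window of the first is shown. The core occurred once in it, at position 138 of 250, and not in the window of the second (chr5:104435942-104436191). In that of *Cd44* it occurred at positions 8 and 31. The *Itgb5* window held none. Over both strands, 23.3% of 32851 promoter windows of this length held this core. It also occurred in the windows of *Itgav*, *Itgb1* and *Itga5*, 2 of which belong to genes that were not called different at any time. The AP-1 motif TGANTCA was found in 6.75% of all windows, and the E-box letters CACGTG and CATGTG in 6.02% and 12.3%, but none of the 3 was found in the windows of the 7 genes. No motif letters overlapped in these windows, and a match is a description of letters only.

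In NI, *Spp1* had 79.4, 94.8 and 108 CPM in the 3 samples. At 72 h the samples had 3789, 5235 and 3460 CPM after HS and 5188, 4714 and 3854 CPM after FT, so the lowest injured value was far above the highest NI value. The difference in log2(CPM + 0.5) from NI was 5.45 after HS and 5.60 after FT. It was the largest among 1506 and 1349 genes that a filter on the same comparison kept. The filter asked for a call as higher, every injured sample above every NI sample and a mean of at least 1 CPM. That *Spp1* came first in this order restates its choice and is no separate result. This order holds for log2(CPM + 0.5): by the ratio of means without an added value, genes with lower NI levels, such as *Rrm2* after HS and *Gpnmb* after FT, stood above *Spp1*. The next largest rises after HS were those of *Fn1* (5.33) and *Rrm2*, a ribonucleotide reductase subunit (5.29), and after FT those of *Gpnmb*, a lysosomal glycoprotein (5.41), and *Fn1* (5.39). *Spp1* and *Fn1* were 2 of the 3 largest rises on this scale after both injuries, that of *Spp1* by choice. *Cd44* stood at rank 269 after HS and 214 after FT.

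At 1 week *Spp1* had 2482 and 2836 CPM after HS and 1459, 2036 and 2894 CPM after FT. At 2 weeks the samples had 3499, 4390 and 3206 CPM after HS and 3748, 2961 and 2894 CPM after FT. No injured sample came near the NI range. Against NI the log2 difference was 4.82 ± 0.28 (SE) for HS 1 week, 5.29 ± 0.25 for HS 2 weeks, 4.45 ± 0.25 for FT 1 week and 5.08 ± 0.25 for FT 2 weeks, and the largest limma adjusted p of the 4 was 5.66e-10. These comparisons share the 3 NI samples with each other and with those at 72 h. The mean of *Spp1* was 4161 ± 944 CPM (SD, n = 3) at 72 h and 2659 ± 250 CPM (SD, n = 2) at 1 week after HS. After FT it was 4585 ± 676 CPM at 72 h and 2130 ± 722 CPM at 1 week (SD, n = 3 each). Every 1 week sample lay below every 72 h sample of its injury, a difference that was not tested because the choice of the gene used the 72 h samples. From 1 to 2 weeks the log2 difference was 0.47 after HS (95% interval -0.12 to 1.05, limma adjusted p = 1.00) and 0.63 after FT (0.11 to 1.16, adjusted p = 0.931), and neither was called.

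*Fn1* had 13.5, 13.9 and 11.4 CPM in NI. At 72 h it had 684, 438 and 515 CPM after HS and 914, 407 and 470 CPM after FT, where replicate 1 stood above the other two samples. At 1 week the samples had 405 and 362 CPM after HS and 167, 287 and 247 CPM after FT, and at 2 weeks 335, 281 and 224 CPM after HS and 416, 203 and 199 CPM after FT. All 17 injured samples were above 160 CPM, while no NI sample reached 14 CPM. *Fn1* was called higher than in NI at all 4 later points: the ratio of means was 29.7 (log2 difference 4.84 ± 0.33, SE) for HS 1 week, 21.6 (4.37 ± 0.30) for HS 2 weeks, 18.1 (4.09 ± 0.30) for FT 1 week and 21.1 (4.26 ± 0.30) for FT 2 weeks. The limma adjusted p was between 1.65e-09 and 6.36e-09 in these 4 comparisons.

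*Fn1* was lower at the later times than at 72 h after FT. The log2 difference from FT 72 h was -1.29 ± 0.30 (SE) at 1 week (limma adjusted p = 0.0101) and -1.12 ± 0.30 at 2 weeks (adjusted p = 0.0249), and both were called. Both calls ended with only the samples of the 2 groups in the fit, at the same differences (adjusted p = 0.0786 and 0.1139). They also rested on FT 72 h replicate 1: without it the differences were -0.94 (adjusted p = 0.0794) and -0.77 (adjusted p = 0.157). That sample also had the highest summed level of the monocyte markers, 245 CPM, against 96.7 and 81.3 CPM in the other two samples of its group. At 2 weeks the call also ended without FT 2 weeks replicate 2 (-0.96, adjusted p = 0.118) or replicate 3 (-0.94, adjusted p = 0.146). After HS the difference from 72 h was -0.48 ± 0.33 at 1 week (adjusted p = 0.359) and -0.96 ± 0.30 at 2 weeks (adjusted p = 0.0416), the last below the threshold of 2-fold. The 2 comparisons of each injury share its 72 h samples.

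The proportion of the 2 ligand genes was also followed within samples. The CPM of *Fn1* was on average 14.1% of that of *Spp1* in NI, 13.8% and 12.8% at 72 h after HS and FT, and 14.6% and 11.4% at 1 week. It was 7.65% at 2 weeks after HS (6.39% to 9.56%) and 8.27% after FT (6.86% to 11.1%). In the NI samples it was 10.6% to 16.95%, a range that overlapped that of FT 2 weeks but not that of HS 2 weeks. The ranges at HS 72 h (8.37% to 18.1%), FT 72 h (8.63% to 17.6%) and FT 1 week (8.52% to 14.1%) overlapped those at 2 weeks, and the difference was not tested.

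**Figure D1:**
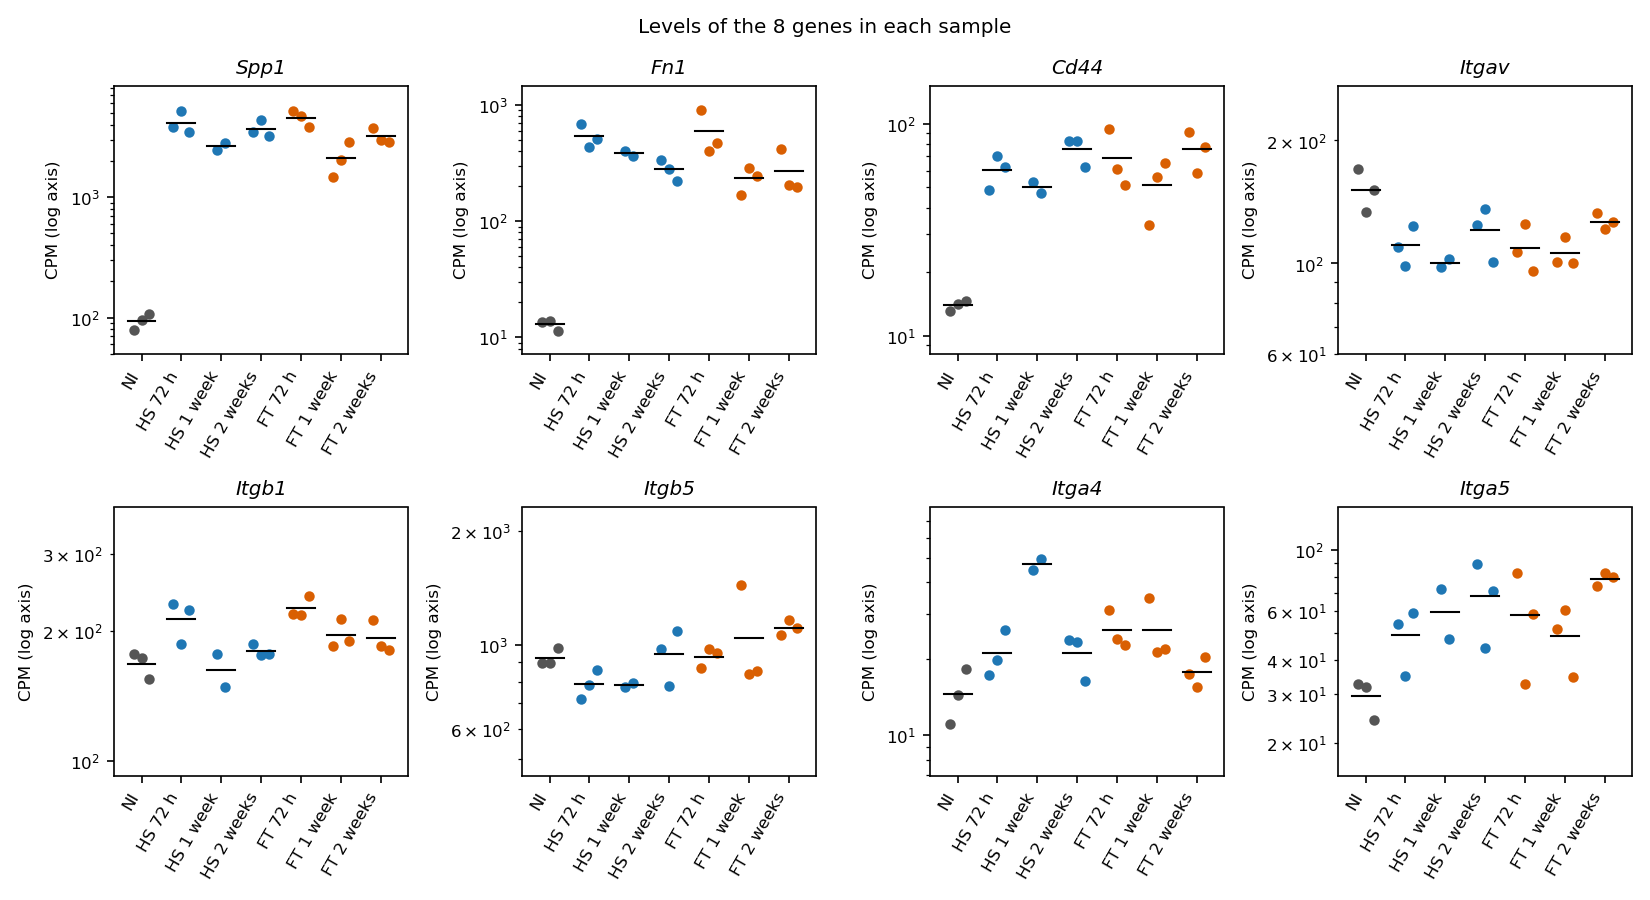
Level of each of the 8 genes in every sample, in CPM on a log axis, by group. Each point is 1 sample and each line the mean of its group (NI grey, HS blue, FT orange). *Spp1*, *Fn1*, *Cd44* and, narrowly, *Itga5* have all injured samples above all NI samples. *Itga4* is highest in the 2 samples of HS 1 week, and the points of *Itgb5* stay between 721 and 1443 CPM.

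*Cd44* had 13.05, 14.2 and 14.5 CPM in NI. At 72 h its samples had 48.6, 70.6 and 62.1 CPM after HS and 94.0, 61.3 and 51.1 CPM after FT, and the log2 differences from NI were 2.07 and 2.22. It had 53.1 and 47.3 CPM at HS 1 week and 33.4, 56.2 and 65.1 CPM at FT 1 week. At 2 weeks it had 82.5, 82.5 and 62.6 CPM after HS and 91.4, 58.7 and 77.7 CPM after FT. The lowest injured sample, FT 1 week replicate 1, was still above every NI sample. Against NI the ratio of means was 3.61 for HS 1 week, 3.71 for FT 1 week and 5.46 for both injuries at 2 weeks, with log2 differences of 1.81 ± 0.27, 1.80 ± 0.25, 2.40 ± 0.25 and 2.39 ± 0.25 (SE). All 4 were called, with limma adjusted p of 0.000331, 4.81e-05, 9.30e-07 and 7.18e-07. *Cd44* at 2 weeks differed from its 72 h level by 0.33 after HS (95% interval -0.18 to 0.84) and by 0.17 after FT (-0.34 to 0.67), and neither difference was called.

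The alpha subunit genes followed separate courses. *Itga4*, whose product pairs with that of *Itgb1* in binding VCAM1, had 11.1, 14.4 and 18.3 CPM in NI. It had 17.2, 19.9 and 26.0 CPM at HS 72 h, 44.9 and 49.3 CPM at HS 1 week, and 23.7, 23.3 and 16.4 CPM at HS 2 weeks. After FT it had 31.2, 24.0 and 22.6 CPM at 72 h, 34.8, 21.3 and 21.9 CPM at 1 week, and 17.4, 15.5 and 20.3 CPM at 2 weeks. The 2 samples of HS 1 week were thus above all other 18. *Itga4* was called higher in HS 1 week than in NI, with a ratio of means of 3.23 and a log2 difference of 1.68 ± 0.26 (SE, limma adjusted p = 0.000415). In FT 1 week the difference from NI was 0.80 ± 0.23 (adjusted p = 0.0385), below the 2-fold threshold, and at 2 weeks it was 0.53 (adjusted p = 0.253) after HS and 0.29 (adjusted p = 0.557) after FT. *Itga4* was also called higher in HS 1 week than in HS 72 h, by 1.16 ± 0.26 (adjusted p = 0.00651), and this call ended without HS 1 week replicate 2 (1.10, adjusted p = 0.0834). The overlapping gene *Cerkl* had 3.40 and 5.05 CPM in HS 1 week against 3.07 to 4.504 CPM in NI. In the same 2 samples the summed T cell markers were 5.17 and 6.86 CPM, against 3.87 to 5.53 CPM in NI, and the monocyte markers 56.8 and 32.4 CPM.

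*Itga5*, the alpha subunit gene of the fibronectin receptor, had 32.5, 31.8 and 24.3 CPM in NI. It had 53.8, 35.0 and 59.2 CPM at HS 72 h and 82.5, 32.7 and 58.9 CPM at FT 72 h. The 1 week samples had 72.2 and 47.5 CPM after HS and 51.7, 60.5 and 34.6 CPM after FT. At 2 weeks it had 89.2, 44.3 and 70.9 CPM after HS but 74.0, 82.3 and 80.0 CPM after FT, where the replicates lay close together. All injured samples were above the highest NI sample, some of them narrowly. *Itga5* was called higher than in NI at 2 weeks, by 1.41 ± 0.30 (SE) on the log2 scale after FT (limma adjusted p = 0.00364) and by 1.15 ± 0.30 after HS (adjusted p = 0.0271). The call after HS ended without any 1 of the 3 NI samples (adjusted p = 0.0567, 0.0718 and 0.130), without HS 2 weeks replicate 1 (0.160) or replicate 3 (0.101), and with columns scaled to 1 total (0.83, adjusted p = 0.117). At 1 week the differences from NI were 0.99 (adjusted p = 0.148) after HS and 0.69 (adjusted p = 0.209) after FT.

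The ratio of *Itga5* to *Itga4*, in CPM, was 2.16 on average in NI (1.32 to 2.94), 2.39 and 2.20 at 72 h after HS and FT, 1.28 in HS 1 week (0.963 and 1.61), 1.97 in FT 1 week (1.48 to 2.84), 3.33 in HS 2 weeks (1.90 to 4.32) and 4.499 in FT 2 weeks (3.94 to 5.31). The FT 2 weeks samples were above the NI samples without overlap.

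The other 3 receptor genes showed no called difference in any of the 13 tested comparisons, while *Spp1* and *Fn1* were at least 18.1 times their NI means. *Itgb5*, which encodes the partner of the *Itgav* product, had 895, 897 and 981 CPM in NI and 721 to 1443 CPM in the injured samples, with the highest value in FT 1 week replicate 1. Its log2 differences from NI lay between -0.24 and 0.26 at 1 and 2 weeks. *Itgb1*, the common beta subunit gene, had 154 to 176 CPM in NI and 148 to 241 CPM after injury, and its differences from NI were between -0.05 and 0.22 at these times. *Itgav* had 134 to 170 CPM in NI and 95.9 to 136 CPM after injury. Its difference was -0.59 ± 0.18 (SE) in HS 1 week (limma adjusted p = 0.0918), -0.33 ± 0.16 in HS 2 weeks (0.308), -0.51 ± 0.16 in FT 1 week (0.0573) and -0.25 ± 0.16 in FT 2 weeks (0.438). Thus *Itgav* was lower on average in every injured group, but no difference passed the test and none was 2-fold. With columns scaled to 1 total, the 4 differences were -0.80, -0.66, -0.86 and -0.65 with adjusted p of 0.0191, 0.0202, 0.00224 and 0.0137, again below 2-fold.

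**Figure D2:**
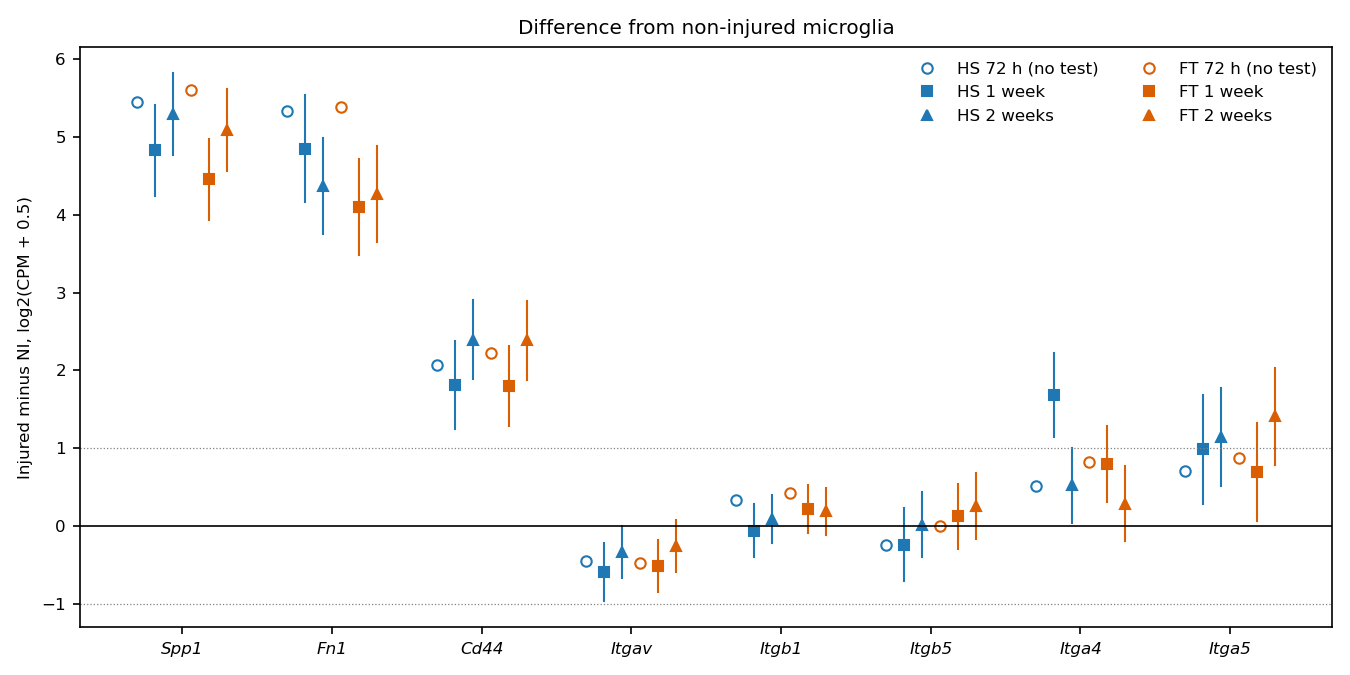
Difference of each injured group from NI in log2(CPM + 0.5), for the 8 genes. Filled symbols are tested differences with their 95% interval from limma, open symbols are the 72 h differences, shown without a test, and dotted lines mark 2-fold. *Spp1* and *Fn1* lie between 4.09 and 5.60, *Cd44* between 1.80 and 2.40, and *Itgav* below 0.

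By count, 3 of the 8 genes were at least 2-fold higher than NI at 72 h after both injuries. They were *Spp1*, by the choice of the set, and *Fn1* and *Cd44*. Of all genes, 9.36% were so after HS and 8.52% after FT. Genes were called with a limma adjusted p under 0.05 and a change of at least 2-fold. Against NI, 4 of 8 were called in HS 1 week, where 2.18% of all genes were called, and 4 in HS 2 weeks (3.23%). After FT, 3 were called at 1 week (4.05%) and 4 at 2 weeks (4.88%), and each called gene was higher. *Spp1* is in all of these counts and in the medians below, and its choice used the same NI samples. The counts and medians are therefore a description and no test of the set. Without FT 1 week replicate 1, the FT 1 week differences of *Spp1*, *Fn1* and *Cd44* from NI were 4.69, 4.32 and 2.08, and all 3 were still called, while that of *Itgb5* turned from 0.13 to -0.13 (adjusted p = 0.641). The median log2 difference of the 8 genes was 1.34, 0.84, 0.75 and 0.85 in these comparisons, and that of all genes was 0.02, -0.01, -0.03 and -0.02. Of the 7 genes tested against 72 h, 1 (*Itga4*) was called higher in HS 1 week (6.03% of all genes called), 1 (*Fn1*) lower in FT 1 week (3.44%) and 1 (*Fn1*) lower in FT 2 weeks (3.81%). None was called in HS 2 weeks against HS 72 h (4.74%), where limma gave 1 at an unadjusted p under 0.05 (25.6% of all genes), edgeR called none and DESeq2 called 1, *Fn1*. Between 1 and 2 weeks none of the 8 was called after HS (0.0119% of all genes) or FT (0.0714%) by limma, edgeR or DESeq2. At an unadjusted p under 0.05 limma gave 2 after HS (4.69% of all genes), *Cd44* and *Itga4*. After FT it gave 4 (4.6%), *Spp1*, *Cd44*, *Itga4* and *Itga5*.

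The column sums differed between NI (777426 to 830481 CPM) and injured samples (878070 to 1202186 CPM). With columns scaled to 1 total, the median of all genes against NI shifted to -0.53 at HS 72 h, -0.48 at FT 72 h and between -0.17 and -0.36 later. At that scaling the differences of *Spp1* were 4.10 to 5.13, those of *Fn1* 3.76 to 4.93 and those of *Cd44* 1.47 to 2.08, all positive and above the shift. Differences of 3 receptor genes changed sign with this scaling; those at 1 and 2 weeks were not called under either scaling, and those at 72 h were not tested. That of *Itgb1* went from 0.34 to -0.17 at HS 72 h, 0.43 to -0.04 at FT 72 h, 0.10 to -0.23 at HS 2 weeks, 0.22 to -0.13 at FT 1 week and 0.19 to -0.20 at FT 2 weeks. That of *Itgb5* went from 0.01 to -0.46 at FT 72 h, 0.02 to -0.30 at HS 2 weeks, 0.13 to -0.22 at FT 1 week and 0.26 to -0.13 at FT 2 weeks, and that of *Itga4* from 0.29 to -0.09 at FT 2 weeks.

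The severity of the injury was compared by setting FT against HS at the same time. None of the 8 genes was called at any of the 3 times, as was no gene of the table (0% at each time), by limma, and edgeR and DESeq2 also called none of the 8. At an unadjusted p under 0.05, limma gave 0 of 8 at 72 h (3% of all genes), 2 at 1 week (4.31%) and 0 at 2 weeks (2.61%). The 2 were *Itga4*, lower in FT 1 week by 0.88 (95% interval 0.34 to 1.42 lower, adjusted p = 0.999), and *Fn1*, with a difference of -0.75 (-1.44 to -0.06, adjusted p = 0.999). Without FT 1 week replicate 1 the difference was -1.11 for *Itga4* (adjusted p = 0.1515) and -0.53 for *Fn1* (adjusted p = 0.523). For *Spp1* the FT minus HS difference was 0.15 at 72 h (-0.37 to 0.67), -0.37 at 1 week (-0.96 to 0.21) and -0.21 at 2 weeks (-0.73 to 0.32). For *Cd44* it was 0.16 (-0.35 to 0.66), -0.01 (-0.58 to 0.56) and -0.01 (-0.52 to 0.50). At 72 h and 2 weeks none of the 8 intervals reached 2-fold in either direction, whereas at 1 week those of *Fn1* and *Itga4* did. The change in *Itga4* from 72 h to 1 week differed between FT and HS by -1.18 ± 0.35 (SE), with an unadjusted p of 0.00275 and a limma adjusted p of 0.996.

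**Figure D3:**
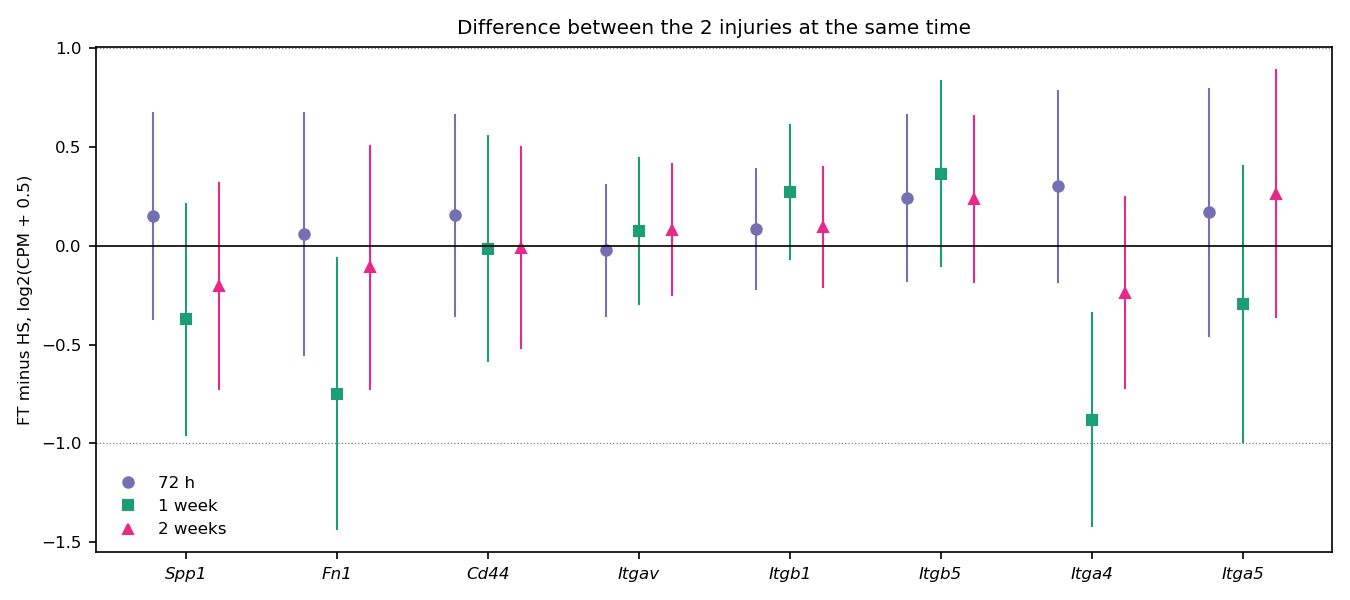
FT minus HS in log2(CPM + 0.5) for the 8 genes at 72 h, 1 week and 2 weeks, with 95% intervals from limma; dotted lines mark 2-fold. The intervals of *Itga4* and *Fn1* at 1 week lie below 0 (unadjusted), and all others include 0.

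To compare levels between genes, CPM was divided by the exon length of each gene. In NI the order per kb was *Itgb5* (273 ± 14.4 CPM per kb, SD, n = 3), *Spp1* (57.0 ± 8.57), *Itgb1* (44.0 ± 3.07), *Itgav* (21.5 ± 2.58), *Itga5* (6.74 ± 1.04), *Cd44* (2.46 ± 0.133), *Fn1* (1.52 ± 0.157) and *Itga4* (1.495 ± 0.371). *Itgb5* was first and *Spp1* second in all 3 NI samples, and *Fn1* and *Itga4* did not differ beyond their spread. In all 17 injured samples *Spp1* was first and *Itgb5* second. *Fn1*, which was the seventh or the eighth in NI, was the third or the fourth in all 17, next to *Itgb1*. Among the 6 receptor genes *Itgb5* was first, *Itgb1* second and *Itga4* last in each of the 20 samples, while *Itgav*, *Itga5* and *Cd44* exchanged places after injury. At FT 2 weeks *Itgav* (18.0 ± 0.807 CPM per kb) and *Itga5* (18.0 ± 0.970) did not differ beyond their spread, and *Cd44* had 13.4 ± 2.91.

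Among 15729 genes with an exon length, the mean of *Spp1* per kb ranked 841 in NI and between 21 and 61 in the injured groups. The rank of *Fn1* went from 9324 in NI to between 958 and 1945. *Itgb5* ranked 176 in NI and 212 to 355 after injury.

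**Figure D4:**
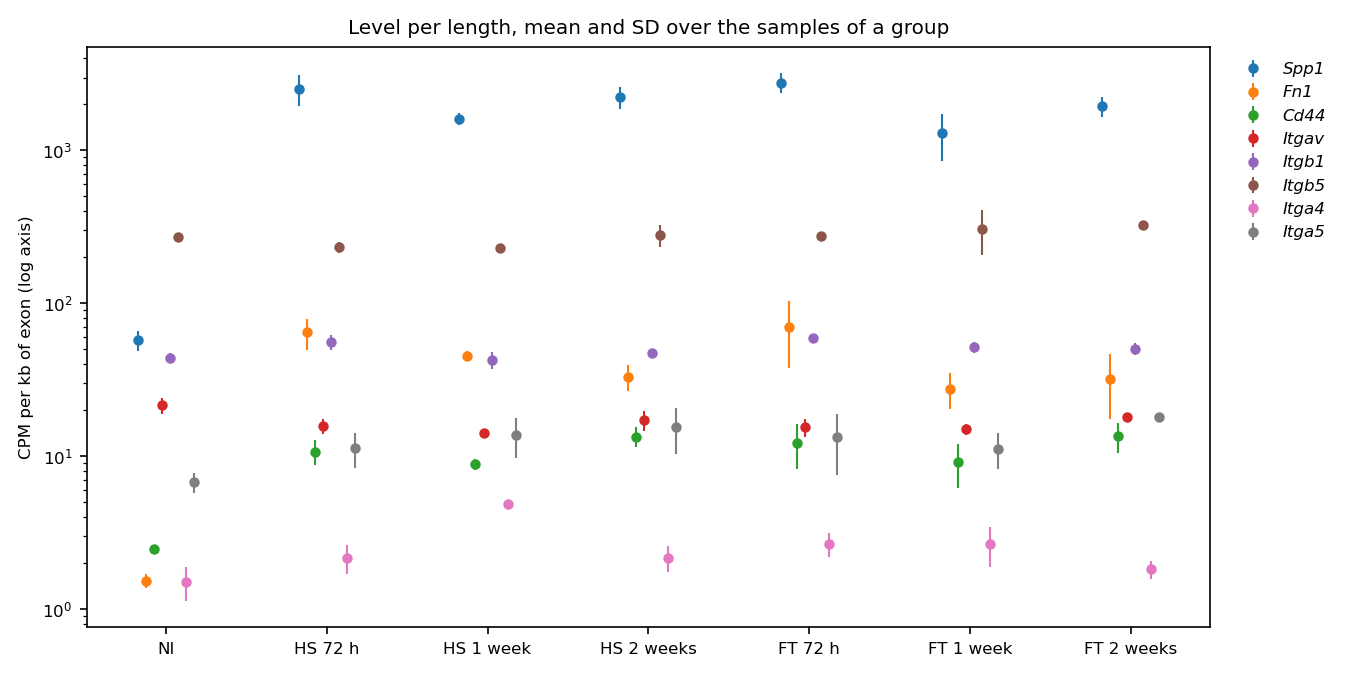
Level per length of the 8 genes in each group, in CPM per kb of exon on a log axis; points are means and bars SD over the samples of a group. *Spp1* passes *Itgb5* and *Fn1* passes *Itgav* in all injured groups, and *Itgb5* stays between 231 and 327 CPM per kb.

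The genes whose differences from NI were most like those of *Spp1* were found by the root mean square difference, over the 17 injured samples, of log2(CPM + 0.5) minus its NI mean, among 15474 genes. The closest was *Fn1* (0.65), followed by *Gpnmb* (1.10) and *Apoc2*, an apolipoprotein gene (1.11). *Gpnmb* had a mean of 2.91 CPM in NI and between 76.3 and 253 CPM in the injured groups, and *Apoc2* had 3.998 CPM in NI and between 43.3 and 147 CPM. For *Fn1* the closest were *Spp1* (0.65), *Apoc2* (0.86) and *Ch25h*, which encodes cholesterol 25-hydroxylase (1.19) and had 7.37 CPM in NI and 95.3 to 194 CPM after injury. The measure weights the size of the rise more than its course and includes the 72 h samples that chose *Spp1*: *Gpnmb* went from 76.3 CPM at 72 h to 244 CPM at 2 weeks after HS, where *Spp1* was highest at 72 h. The samples of a group share the injury, so this likeness is a description.

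Of 9 genes of other receptors for the 2 ligands, only *Itga9* was called against NI, and it was lower in all 4 tested comparisons. *Itga9* encodes another alpha subunit that binds osteopontin with the *Itgb1* product. It had 63.1 ± 3.88 CPM (SD, n = 3) in NI, 19.6 ± 1.51 and 21.8 ± 1.70 CPM at 72 h after HS and FT, and 23.0 to 30.0 CPM in the later groups. The log2 difference was between -1.06 and -1.44, with a largest limma adjusted p of 0.000207. *Itgb3*, which encodes the other well known partner of the *Itgav* product, had 61.7 ± 4.67 CPM in NI and 48.8 to 66.8 CPM in the injured groups, and was not called in any comparison. *Itgb6* was called higher at both later times than at 72 h after HS, at levels of at most 2.10 CPM in any group. Of the other 13 integrin subunit genes, *Itgax* and *Itgal* were called higher than NI in all 4 comparisons and no other gene was called. *Itgax*, the CD11c gene, was highest at 2 weeks: it had 15.3 ± 1.17 CPM in NI, 22.1 ± 10.1 and 25.1 ± 9.09 CPM at 72 h, 71.7 and 50.8 CPM at 1 week, and 166 and 154 CPM at 2 weeks after HS and FT.

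The ligand list held 10 measured genes of 12 (*Fgb* and *Fgg* had no row). Against NI, 1 was called in HS 1 week (*Thbs1*), 1 in HS 2 weeks (*Postn*), 0 in FT 1 week by limma, edgeR or DESeq2 (3 at an unadjusted p under 0.05 in limma, as were 18.2% of all genes) and 2 in FT 2 weeks (*Postn* and *Vcam1*), all higher. *Postn*, which encodes the matrix protein periostin, had 6.69 ± 0.441 CPM in NI and still 10.6 and 11.3 CPM at 1 week, and had 40.8 and 51.8 CPM at 2 weeks. It was called higher at 2 weeks than at 1 week after both injuries, by 1.87 ± 0.27 and 2.12 ± 0.24 (log2, SE, limma adjusted p = 0.00940 and 0.000110). *Vcam1*, the ligand of the *Itga4* product, had 12.5 to 34.9 CPM in the NI samples (mean 21.3), means of 11.5 and 14.5 CPM at 72 h and 38.1 to 51.8 CPM later, and was called higher at both later times than at 72 h after both injuries. *Thbs1*, *Thbs2* and *Tgfbi*, genes of 2 thrombospondins and a TGF-beta-induced matrix protein, were at least 2-fold above NI at 72 h and were called lower later: *Thbs2* and *Tgfbi* in all 4 comparisons with 72 h, and *Thbs1* in 3. In FT 72 h, *Tgfbi* ranged from 162 to 690 CPM and *Thbs1* from 62.5 to 272 CPM. The 3 measured relatives of osteopontin in the SIBLING family (*Ibsp*, *Dmp1* and *Dspp*) had group means of at most 2.02 CPM, and none was called by limma or DESeq2 in any of the 13 comparisons. At an unadjusted p under 0.05 limma gave 2 of the 3 in HS 1 week against HS 72 h (26.8% of all genes) and 1 in HS 2 weeks against HS 72 h, where edgeR called 1, and 0 in the other 11 comparisons.

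Among 8 measured enzymes that cleave or crosslink these proteins, *Mmp12* (macrophage elastase) and *Plau* (urokinase) were called higher than NI in all 4 comparisons. *Mmp12* had 4.38 ± 1.09 CPM in NI, 12.4 and 16.1 CPM at 72 h, and 66.7 and 61.2 CPM at 2 weeks after HS and FT. *Plau* had 13.8 ± 2.47 CPM in NI and 53.0 and 61.6 CPM at 2 weeks. *F13a1*, which encodes a transglutaminase that crosslinks fibronectin, was lower than NI at 2 weeks, by 1.62 ± 0.41 after HS and 2.28 ± 0.41 after FT (log2, SE, limma adjusted p = 0.0203 and 0.000726). Of 7 genes of CD44 linkers and other CD44 ligands, *Ezr* (ezrin) was called higher in FT 2 weeks. None was called in the other 3 comparisons with NI by limma, edgeR or DESeq2. At an unadjusted p under 0.05 limma gave 1, 2 and 1 for HS 1 week, HS 2 weeks and FT 1 week. At 72 h, *Ezr*, *Msn* and *Srgn* were at least 2-fold above NI after both injuries, without a test. That held for 9.36% of all genes after HS and 8.52% after FT. *Msn* had means of 477 CPM in NI and 1124 and 1022 CPM at 72 h after HS and FT. *Has3* was at least 2-fold below NI at HS 72 h. Against 72 h, limma called *Srgn* lower in FT 1 week and *Has3* higher at both later times after HS. The group means of *Has3* were at most 2.51 CPM. None of 18 genes of the integrin adhesion machinery, such as *Tln1* (talin) and *Fermt3* (kindlin-3), was called against NI at 1 or 2 weeks by limma, edgeR or DESeq2, with 2 in HS 1 week, 3 in HS 2 weeks, 6 in FT 1 week and 5 in FT 2 weeks at an unadjusted p under 0.05 in limma. Of all genes, 12.8%, 16.1%, 18.2% and 19.1% were under that p in these comparisons. At 72 h, without a test, *Actn1* was at least 2-fold above NI and *Src* at least 2-fold below it after both injuries. After FT, *Bcar1* and *Tns1* were also at least 2-fold below NI. Against 72 h, limma called *Tns1* higher and *Actn1* lower in HS 2 weeks (4.74% of all genes called). It called *Src* and *Tns1* higher in FT 2 weeks (3.81%), and no gene of this list at 1 week.

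**Figure D5:**
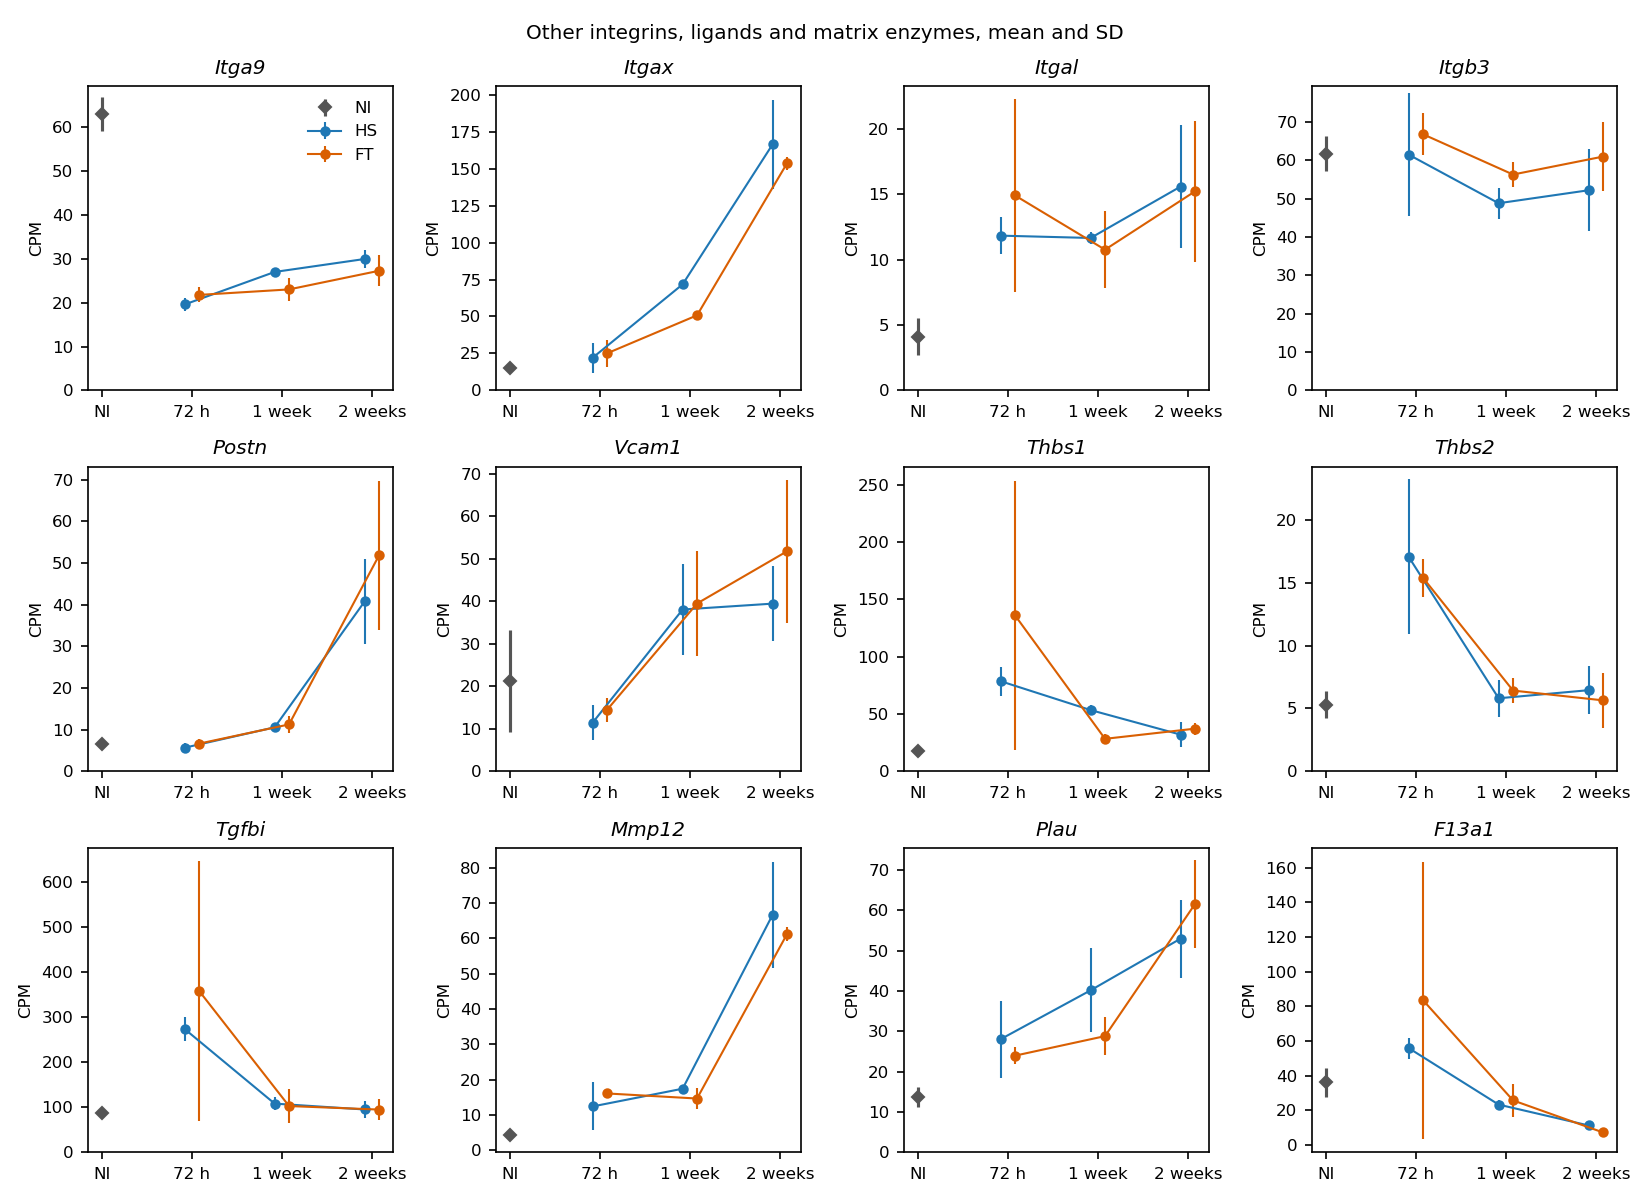
Levels of 12 genes of other integrins, ligands and matrix enzymes, in CPM on linear axes; points are group means and bars SD (NI grey, HS blue, FT orange), with times evenly spaced. *Itgax*, *Postn* and *Mmp12* are highest at 2 weeks, *Thbs1*, *Thbs2* and *Tgfbi* at 72 h, and *Itga9* stays below its NI level of 63.1 CPM.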

How the data were processed

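Polyadenylated RNA of sorted microglia was sequenced in 20 samples of 7 groups. The signal values that the authors deposited are gene counts normalised by library size: adapters were removed, reads were mapped with TopHat2 (version 2.0.9) to mm10, counted with HTSeq (0.5.4p3), filtered for low counts and scaled with edgeR (3.3.6), per the labels and the study's methods. All 336200 values (100%) came out as whole reads, within 0.001 read, which gave the depth. The members and gene lists were chosen with earlier results of these data known.

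Values plus 0.5 were taken to log2 and fitted with limma 3.58.1 (intensity trend, 1 mean per group, all 20 samples), with Benjamini-Hochberg adjustment over 16810 genes. Genes were called at adjusted p under 0.05 and at least 2-fold. Apart from the filter of the 72 h ranking, no test of the members was used at 72 h against NI, nor of *Spp1* at later times against 72 h. Alternatives were 0.1 or 1 added, a filter (1 CPM in 2 samples), only the 2 groups compared, 3 other scalings, no fold limit, a replicate block, edgeR 4.0.16 quasi-likelihood and DESeq2 1.42.0 (both run on the recovered reads), and fits without 1 sample. Exon lengths came from GENCODE, promoters from RefSeq. Besides the 8 members, genes called in the most comparisons of each list other than the marker lists were named, as were the 3 most like *Spp1* and *Fn1*. Others, such as *Tln1* and *Fermt3*, were named after their values were seen.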

Additional observations from a re-analysis of the deposited data

How the results depend on the processing

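The counts of the 8 genes called against NI at 1 and 2 weeks, and between FT and HS, stayed within 1.5 times the reported count under all alternatives run. With only the samples of the 2 groups in the fit, the count against FT 72 h was 0 at FT 1 week and 0 at FT 2 weeks. For HS 2 weeks against HS 72 h the count was 1 with DESeq2 and 1 with no fold limit. Leaving out 1 sample gave 0 to 1 genes for HS 1 week against HS 72 h, 0 to 1 for FT 1 week against FT 72 h and 0 to 1 for FT 2 weeks against FT 72 h. No direction of a called gene reversed. Why these counts moved was not tested.

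In the correlations over all pairs, replicate numbers showed no sign of pairing the samples. Of 57 pairs with the same number, 20 had deviations correlated above 0.1 (median r 0.0017). Of 114 pairs with different numbers, 43 did (median r 0.00065). By best correlation, 9 of 20 samples matched a sample of their own number. The number to be met without pairing was not computed, so this count alone does not decide the question. With the replicate number as a block, the counts against NI were 4 in HS 1 week, 4 in HS 2 weeks, 3 in FT 1 week and 4 in FT 2 weeks, as without it. HS 1 week had 2 samples, so leaving out 1 assumes that the other varies like the remaining groups. Depth limited the genes near 1 CPM, such as *Itgb6* and *Ibsp*, more than the 8.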
